A study of Homo sapiens with 6 samples.

Results

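The Affymetrix U133 Plus 2.0 array carries many probe sets, groups of short probes read out as 1 value, to which no gene symbol is attached. In the annotation used here 11721 of the 54613 probe sets other than the Affymetrix controls had no symbol, 41091 had 1 symbol and 1801 had several. The members described below are the 11721 for which the annotation lists no symbol, and no measured value decides which probe sets belong. The class itself was chosen with earlier results of these data known. A probe set that the annotation does not list is unnamed here, and this does not show that it lies outside a gene. Each is therefore called by its Affymetrix identifier.
The arrays measured RNA from K562, a line of human leukemia cells with erythroid features that came from a patient with chronic myeloid leukemia, in 3 stably transfected pTRE-ERG clones, CL4, CL9 and CL46. In these clones ERG is placed behind a tetracycline-responsive promoter. The ERG-induced group held 1 array of each clone grown with 1 µg/ml doxycycline for 8 days, and the non-induced group 1 array of each clone grown without it. The time is that of the study's methods, while the legend of its heat map gives a shorter one. Both groups carry the construct and each clone descends from a single transfected cell, so the model covers 3 clones of 1 cell line. An effect of ERG and one of doxycycline cannot be told apart, because every ERG-induced culture and no other received the drug.
ERG is a transcription factor of the ETS family that binds DNA in blood and endothelial cells and is overexpressed in some leukemias. Probe sets without a symbol were often designed on expressed sequence tags, which are single reads of cDNA clones. Such tags can stem from introns, from extended or alternative ends of genes, from antisense transcripts and from long noncoding RNAs. Which RNA, if any, a change at such a probe set stems from is not known from these values.
The deposited values are linear ratios, each probe set divided by its median over the 6 arrays, so they show how the arrays of 1 probe set differ and hold no level that could be set against another probe set. For the same reason the cell line could not be checked against its marker genes. The 3 controls that match 18S ribosomal RNA read higher in the ERG-induced array of every clone, by 1.21, 0.59 and 0.82 on the log2 scale (CL4, CL9 and CL46). The part of this in the results below was not tested.

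The members leaned toward lower ratios in the ERG-induced arrays of all 3 clones. Their median log2 difference, ERG-induced minus non-induced, was -0.18 for CL4, -0.15 for CL9 and -0.23 for CL46, with a mean of -0.18 (SD 0.04, n = 3 clones). The same medians over the probe sets with 1 symbol were -0.06, -0.11 and -0.06, and over all probe sets tested -0.08, -0.12 and -0.09. The members minus the probe sets with 1 symbol came to -0.11, -0.04 and -0.16 in CL4, CL9 and CL46, the gap closest to 0 being that of CL9.
By array, the median log2 ratio of the members was -0.09, -0.21 and -0.09 in the ERG-induced group (CL4, CL9 and CL46). It was 0.06, -0.02 and 0.12 in the non-induced arrays of the same clones. The 3 ERG-induced medians were all below the 3 non-induced ones. The ERG-induced array of CL9 held the lowest of the 6 values in 23.9% of the members, more than any other array, and in 28.0% of the probe sets with 1 symbol. The non-induced array of CL46 held the highest value in 23.6% of the members and in 24.2% of the probe sets with 1 symbol. These shares belong to the arrays as a whole and not to the members alone.
The depth of the lean moved with the array scaling. The median over the members of the mean difference was -0.21, and it was -0.10 after each array was centred and -0.073 after quantile normalization. The median of all probe sets, -0.09 as deposited, went to 0.01 and 0.04 under these scalings. Relative to the median of all probe sets, the members were on the lower side as deposited and after quantile normalization. Centring moves every probe set by the same amount, so it cannot change this gap.

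**Figure D1:**
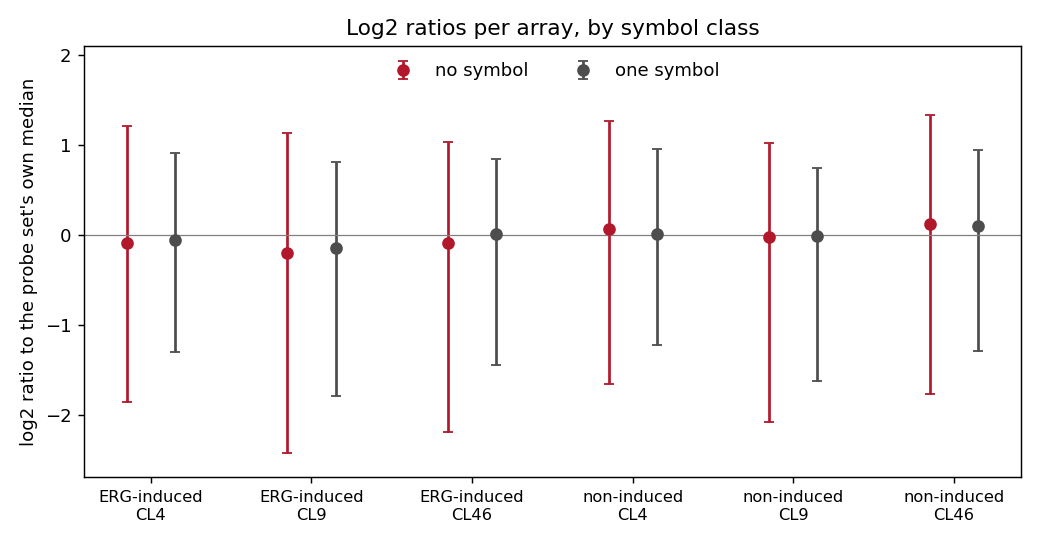
Log2 ratio to the probe set's own median on each of the 6 arrays, for the 11721 probe sets without a symbol (red) and the 41091 with 1 symbol (grey). Points are medians and bars run from the 10th to the 90th percentile of the probe sets, not an error of the mean. The red bars are longer than the grey bars on every array, and the 3 ERG-induced medians of the members lie below the 3 non-induced ones.

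Values of the members scattered more between arrays of the same group than those of named probe sets. The within-group standard deviation of the log2 ratio had a median of 1.19 over the members and 0.65 over the probe sets with 1 symbol, a ratio of 1.82. It was above 1 in 58.5% of the members and in 38.4% of the probe sets with 1 symbol. Of the members, 9.87% had a median ratio below 1 in the deposited table, against 6.52% of the probe sets with 1 symbol. In such probe sets the deposited ratio was not set to 1 at the median, and how the authors scaled them is not given in the sources read here.
Within clones, 27.5%, 30.4% and 30.7% of the members were at least 2-fold lower (CL4, CL9 and CL46). The corresponding shares of at least 2-fold higher members were 20.8%, 23.4% and 19.7%. Over the probe sets with 1 symbol the shares were 19.9%, 25.1% and 21.6% lower and 16.0%, 17.9% and 15.6% higher. Both directions were thus more frequent among the members in each clone.

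Direction was shared by all clones in a minority of the members. Of the 11721 members, 2727 (23.3%) were lower in all 3 clones, 1516 (12.9%) were higher in all 3 and 7478 (63.8%) were mixed. Over all probe sets tested, 24.3% were lower in all 3 clones and 16.5% were higher in all 3, and over those with 1 symbol 24.6% and 17.3%. The lower share of the members was close to the background, and their higher share was smaller. In named probe sets of long noncoding genes, described below, 16.4% were lower in all 3 clones, 13.9% were higher in all 3 and 69.7% were mixed.
The clones share no array, so that the difference in 1 clone can be set against that in another. Between CL4 and CL9 the differences had the same sign in 57.0% of the members and in 60.2% of the probe sets with 1 symbol. The shares were 57.1% and 61.4% between CL4 and CL46, and 58.3% and 62.3% between CL9 and CL46. Across the 11721 members, which are not independent of each other, Pearson's r between the clones' differences was 0.08, 0.07 and 0.13 for the same 3 pairs. Across the 41091 probe sets with 1 symbol it was 0.11, 0.11 and 0.14. In each pair the clones corresponded less closely in the members.
Groups that did not overlap gave the same order. All 3 ERG-induced arrays were below all 3 non-induced arrays in 1574 members (13.4%), where the share over all probe sets was 15.1%. All 3 were above in 626 members (5.34%), against 7.14% over all probe sets. Neither share of the members exceeded the background.

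A probe set was called when its mean change was at least 2-fold and its unadjusted two-sided p, from limma fitted across all 54613 probe sets, was under 0.05. The cut-offs are those of the study, whose methods do not say whether the p was adjusted. At these thresholds 1009 members were called lower and 367 higher, so that 73.3% of their calls were lower. The shares were 8.61% lower, where 8.16% of all probe sets were, and 3.13% higher, where 2.82% of all were. Over the probe sets with 1 symbol, 8.10% were called lower and 2.75% higher. The members' share of lower calls was 0.50 percentage points above that of the probe sets with 1 symbol, a gap that turned to -0.56 without moderation of the variances and to -0.39 without the fold threshold. It was 1.47 without CL4, 1.15 without CL9 and 1.22 without CL46. The number of calls was thus near the background.
After Benjamini-Hochberg adjustment over all probe sets, 0 members and 0% of all probe sets passed an adjusted p of 0.05 in limma. The lowest adjusted p among the members was 0.0860. At an unadjusted p under 0.05 with no fold threshold there were 1527 members (13.0%), against 13.1% of all probe sets.
The members differed from the probe sets with 1 symbol, taken as a whole, in the size of the calls. A mean fall of 2-fold or more, whatever its p, occurred in 2847 members (24.3%), against 18.8% of all probe sets, and a mean rise of that size in 1768 (15.1%), against 12.2%. Of the 4615 members past a mean fold of 2, 29.8% were called, and of the probe sets with 1 symbol past it 37.4%. Called falls had a median of 4.21-fold in the members and 2.97-fold in the probe sets with 1 symbol. Called rises had a median of 4.88-fold and 4.68-fold. Larger calls were not particular to the members. In named probe sets of long noncoding genes, described below, the medians were 4.54-fold for falls and 5.26-fold for rises. Falls of at least 8-fold were called in 172 of the 11721 members, and rises of at least 8-fold in 76. Over all 54613 probe sets these counts were 440 and 277. Members accounted for 45 of the 100 largest called falls of the whole array and for 25 of the 100 largest called rises, while members made up 21.5% of the probe sets tested. A probe set with more scatter needs a larger difference to be called, and the part of the scatter in these sizes was not tested.
Many single calls were lost when 1 clone was left out, which also leaves fewer arrays for the test. Kept calls were counted for the members only, so whether named probe sets lose calls as often is not shown. Of the 1009 members called lower, 644, 536 and 471 remained without CL4, CL9 and CL46 respectively, and 248 remained in all 3 of these fits. Of the 367 called higher, 176, 179 and 192 remained, and 74 remained in all 3. With the clone as a block, 836 of the lower and 268 of the higher calls remained.

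Calls were most frequent at middling scatter. All probe sets were divided into 5 equal bins by their within-group standard deviation, and 8.11% of the members fell in bin 1, the bin of smallest scatter, and 29.2% in bin 5. The probe sets with 1 symbol ran the other way, from 22.8% in bin 1 to 17.7% in bin 5. In bin 1, 84 of 951 members (8.83%) were called lower, against 5.51% of the probe sets with 1 symbol. From bin 2 to bin 5, the members' shares called lower were 17.0%, 14.8%, 6.84% and 1.37%, and those of the probe sets with 1 symbol 16.4%, 12.5%, 3.88% and 0.87%. The members had the higher share of lower calls in each of the 5 bins. From bin 1 to bin 5 the shares called higher were 1.47%, 2.72%, 6.87%, 3.85% and 0.29% of the members, against 0.60%, 2.36%, 7.14%, 3.51% and 0.38% of the probe sets with 1 symbol, with no single order between the classes. The standard deviation is itself part of the p, so these bins are a description.

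**Figure D2:**
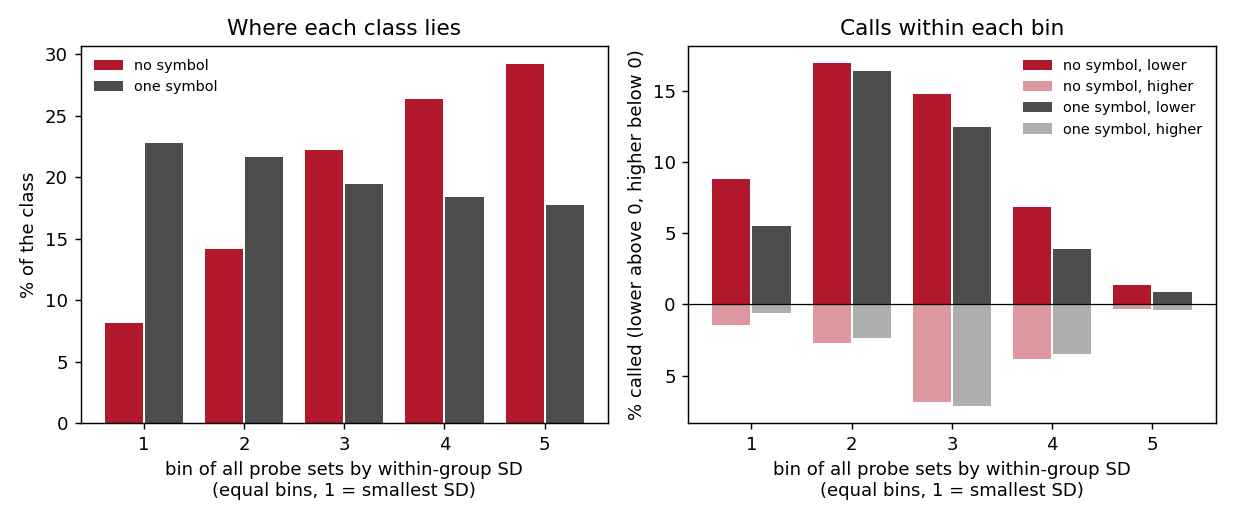
Left, the share of each class in 5 equal bins of all probe sets ordered by within-group standard deviation (SD) of the log2 ratio. Right, the share of each class called lower (drawn upward) and called higher (drawn downward, paler) within each bin. Members (red) are most frequent in bin 5, where 29.2% of them lie, and in every bin their bar for lower calls is higher than that of the probe sets with 1 symbol (grey).

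Members also differed among themselves by the numbering of their identifiers. The array joins the contents of 2 older arrays of the same series with later additions, which carry longer numbers. By number, 2097 members lay in a low-numbered block (200017 to 222394), 6593 in a high-numbered block (222425 to 244891) and 3020 in the added block (1552263 to 1570653), and 11 had numbers below the first of these. Members in the high-numbered block leaned lowest, with median log2 differences of -0.24, -0.26 and -0.32 in CL4, CL9 and CL46. Those in the low-numbered block had -0.07, -0.02 and -0.07, and those in the added block -0.10, -0.03 and -0.15. Probe sets with 1 symbol also leaned lowest in the high-numbered block, at -0.14, -0.21 and -0.14. They had -0.01, -0.07 and -0.03 in the low-numbered and -0.07, 0.0006 and -0.05 in the added block.
The share called lower was 10.3% in the high-numbered, 6.82% in the low-numbered and 6.03% in the added block. The probe sets with 1 symbol had 10.0%, 7.61% and 5.60% in the same 3 blocks. In both classes the share was thus highest in the high-numbered block and lowest in the added block. The added block had the largest scatter, with a median within-group standard deviation of 1.34 in the members and 1.17 in the probe sets with 1 symbol. These were 0.88 and 0.48 in the low-numbered and 1.19 and 0.69 in the high-numbered block.
The suffix of an identifier tells how the probes were judged to match. The suffix _at marks probes unique to 1 transcript, _a_at those shared by transcripts of 1 gene, _s_at those shared by several transcripts and _x_at those with some probes that may bind unrelated transcripts. Of the members, 9788 ended in _at, 302 in _a_at, 796 in _s_at and 833 in _x_at. The share called lower was 8.87%, 6.29%, 6.78% and 8.04% in these 4 kinds of members, and 8.73%, 4.58%, 7.46% and 6.34% in the same kinds with 1 symbol. The _s_at members scattered least, with a median standard deviation of 0.56, and the _a_at members most, with 1.37. Probe sets that may bind unrelated transcripts made up a small part of the members.

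Named probe sets of long noncoding genes scattered like the members, and fewer of them were called lower. Of the probe sets with 1 symbol, 3560 belonged to a gene that RefSeq classes as long noncoding. Their median within-group standard deviation was 1.19, as in the members, and their median log2 differences were -0.08, -0.01 and -0.02 in CL4, CL9 and CL46. The median of their mean difference was -0.06, and it was 0.05 with each array centred and 0.08 after quantile normalization, where the members stood at -0.10 and -0.073. This class was chosen for comparison after the data had been seen.
Of the long noncoding probe sets 4.78% were called lower and 3.68% higher, so that 56.5% of their calls were lower, against 73.3% in the members. The gap in the share called lower, members minus long noncoding, was 3.83 percentage points, and 3.47 with each array centred and 3.25 after quantile normalization. It was 3.63 without CL4, but 1.92 without CL9 and 0.87 without CL46. In the high-numbered block 10.3% of 6593 members and 5.40% of 1500 long noncoding probe sets were called lower, and in the added block 6.03% and 4.15%. Within the 5 bins of scatter, from the smallest to the largest, the long noncoding shares were 5.47%, 8.65%, 8.99%, 3.68% and 0.29%, each below that of the members. The probe sets of protein-coding genes had 8.47% called lower at a median standard deviation of 0.59. With all 3 clones, the class without a symbol stood next to the protein-coding probe sets in its share of lower calls, and next to the long noncoding ones in its scatter. The first placement leans on CL46. Without that clone 6.69% of the members, 5.81% of the long noncoding and 5.47% of all probe sets with 1 symbol were called lower. The protein-coding share was taken with all clones only. These are counts over classes of probe sets, with no test between them.

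**Figure D3:**
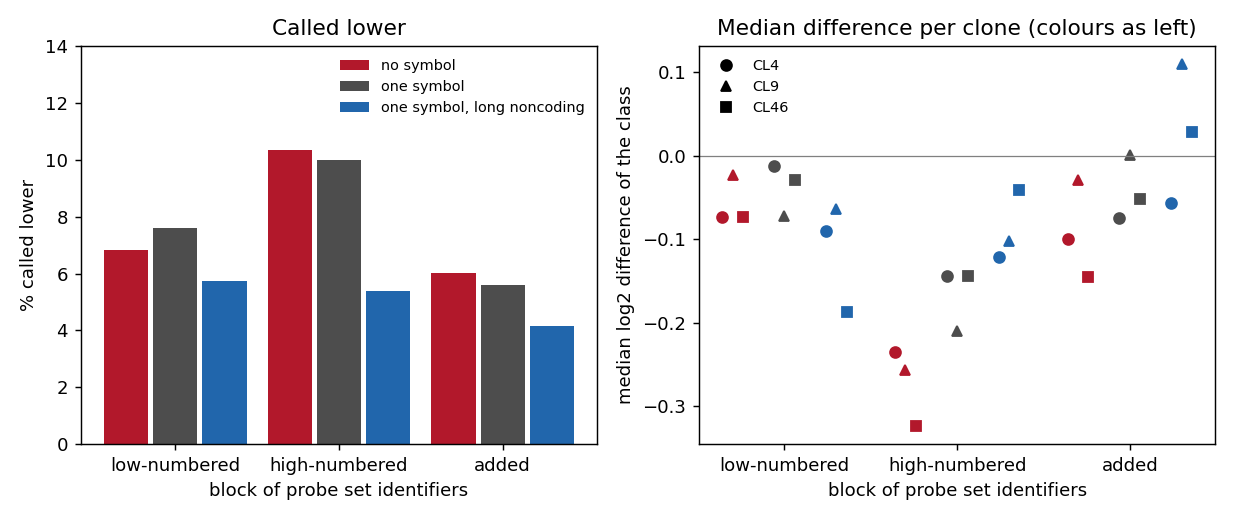
Share of probe sets called lower (left) and median log2 difference, ERG-induced minus non-induced, in each clone (right) by block of identifiers, for members (red), all probe sets with 1 symbol (grey) and those of long noncoding genes (blue). Of the 3 blocks drawn, the high-numbered one has the highest share of lower calls in the members, 10.3%, and there the 3 clone medians of the members lie below those of both other classes.

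The members with the smallest p changed by a similar amount in every clone. Probe set 236032_at fell most, 36.8-fold (log2 difference -5.20, SE 0.30, limma adjusted p = 0.0860). Its ratio was 0.0733, 0.0597 and 0.0743 in the ERG-induced arrays of CL4, CL9 and CL46 and 1.93, 2.89 and 2.91 in the non-induced arrays. The groups were separated by a wide gap. It had the second smallest p of all 54613 probe sets.
Probe set 1564656_at fell 34.0-fold (log2 difference -5.09, SE 0.32), with ratios of 0.0458, 0.0811 and 0.0637 in the ERG-induced and 2.33, 2.08 and 1.92 in the non-induced arrays. Probe set 239245_at fell 26.0-fold, from 2.53, 2.64 and 1.89 to 0.105, 0.107 and 0.0647. The difference closest to 0 was -4.68 for 1564656_at and -4.59 for 239245_at, so both fell far in each of the 3 clones. Probe set 240978_at fell 18.6-fold, and its differences of -4.25, -3.93 and -4.48 were nearly equal in CL4, CL9 and CL46. Probe set 1564753_at fell 9.44-fold, with -3.42, -2.69 and -3.61.
Among the rises, 244754_at had the smallest p, at 14.4-fold (log2 difference 3.85, SE 0.28, limma adjusted p = 0.104). Its ratio was 2.15, 2.18 and 1.82 in the ERG-induced and 0.177, 0.123 and 0.131 in the non-induced arrays. Probe set 241023_at rose 15.5-fold, from 0.125, 0.104 and 0.164 to 2.13, 1.84 and 2.03. In both, the ERG-induced arrays lay within a narrow range. Probe set 1564949_at rose 11.9-fold, 1559310_at 25.0-fold and 240539_at 10.7-fold, with limma adjusted p between 0.115 and 0.142. Each of these 10 members stayed called whichever clone was left out, with the clone as a block and after quantile normalization. Their choice by p on these same arrays favours both this and an even change over the clones, so neither is separate support.

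**Figure D4:**
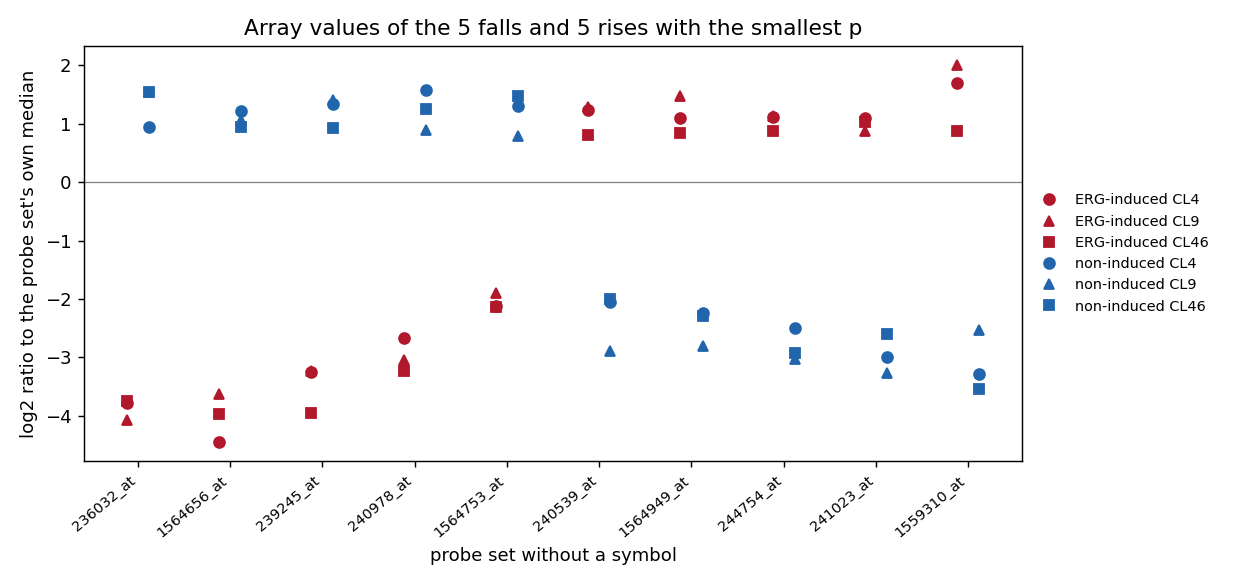
Log2 ratio on each of the 6 arrays for the 5 members called lower and the 5 called higher with the smallest p. Red symbols are ERG-induced and blue symbols non-induced arrays, and the shape gives the clone. In all 10 the groups are separated, and the higher group lies at 0.79 or above while the lower group lies at -1.90 or below. The choice by p on these same arrays favours such separation.

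The largest rises were less even. The 15 largest among members called higher and up in all clones ran from 14.4-fold to 43.7-fold. The largest, 207201_s_at, had ratios of 2.75, 1.86 and 1.76 in the ERG-induced and 0.244, 0.0176 and 0.0252 in the non-induced arrays of CL4, CL9 and CL46 (log2 difference 5.45, SE 1.05, limma adjusted p = 0.185). Its rise was smaller in CL4, whose non-induced array was higher than the others. Probe set 207461_at rose 18.9-fold with log2 differences of 0.99, 5.39 and 6.34 (CL4, CL9 and CL46), and it was not called without CL9 (3.67) or without CL46 (3.19).
Some rises were small in CL9. Probe set 237648_x_at had differences of 5.90, 1.71 and 5.29, 238178_at of 5.26, 1.44 and 5.23, and 1561938_at of 5.42, 1.49 and 4.92 in CL4, CL9 and CL46. Their ratio in the ERG-induced array of CL9 was 0.671, 0.769 and 1.47, against 10.7, 7.07 and 7.53 in that of CL4. These 3 members shared a pattern over the clones. Probe set 238178_at lost its call without CL4 (3.33) or CL46 (3.35), and 237648_x_at lost it likewise (3.50 and 3.81). Probe set 1561938_at kept its call without each clone. Probe set 237435_at was small in CL46 instead, with 4.88, 4.82 and 1.85, and was not called without CL4 (3.34) or CL9 (3.37).
Other rises were smallest in CL4. Probe set 230825_at had ratios of 1.37, 12.8 and 10.0 in the ERG-induced arrays of CL4, CL9 and CL46 and 0.280, 0.255 and 0.633 in the non-induced arrays, and lost its call without CL9 (log2 difference 3.14). Probe set 234783_at rose 16.3-fold, by 1.95 in CL4 and by 4.94 and 5.20 in CL9 and CL46, and lost its call without CL9 (3.58). Probe sets 237962_x_at, 1563704_at, 1569558_at and 207550_at rose 17.6-fold, 17.1-fold, 17.0-fold and 16.9-fold and kept their calls without each clone. Probe set 204414_at, which rose 16.0-fold, was largest in CL4 and lost its call without that clone (3.51). Of the 15 rises, 8 stayed called whichever clone was left out, and 4 had a median ratio below 1.

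The 15 largest falls ran from 20.1-fold to 36.8-fold, and 12 of them had identifiers in the high-numbered block. Besides 236032_at, 1564656_at and 239245_at, those that fell evenly were 242156_at, with log2 differences of -4.55, -4.02 and -6.03 in CL4, CL9 and CL46, and 238796_at, with -3.89, -4.37 and -5.00. Probe set 230225_x_at gave -5.52, -3.37 and -5.64. The highest ERG-induced ratio among these 3 was 0.183 and the lowest non-induced ratio 1.82, both in 238796_at.
Another set of falls was small in CL4. Probe set 1557797_a_at had ratios of 0.753, 0.0248 and 0.0128 in the ERG-induced and 1.35, 1.25 and 1.38 in the non-induced arrays, so that its log2 difference was -0.84 in CL4 and -5.65 and -6.75 in CL9 and CL46. Probe set 239264_at gave -1.25, -6.47 and -7.27, 232569_at -1.84, -6.32 and -4.96, and 214967_at -2.20, -5.00 and -6.68. All 4 lost their call without CL9 or without CL46. The differences without these clones were -3.79 and -3.25 for 1557797_a_at, -4.26 and -3.86 for 239264_at, -3.40 and -4.08 for 232569_at, and -4.44 and -3.60 for 214967_at. Probe sets 234150_at and 230139_at were also smallest in CL4, at -2.97 and -1.89, and kept their calls without each clone.
The remaining falls were led by CL4 or CL9. Probe set 238362_at gave the largest fall of a single clone, -8.07 in CL4, with -4.76 in CL9 and -2.14 in CL46. Its ratio was 10.9 in the non-induced and 0.0404 in the ERG-induced array of CL4. Probe set 237499_at gave -6.73, -1.20 and -5.42 and lost its call without CL4 (-3.31) or CL46 (-3.96), and 236619_at gave -4.37, -6.18 and -3.20 and lost it without CL4 (-4.69). Of the 15 falls, 9 stayed called whichever clone was left out. The limma adjusted p of these 15 falls ran from 0.0860 to 0.327.

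**Figure D5:**
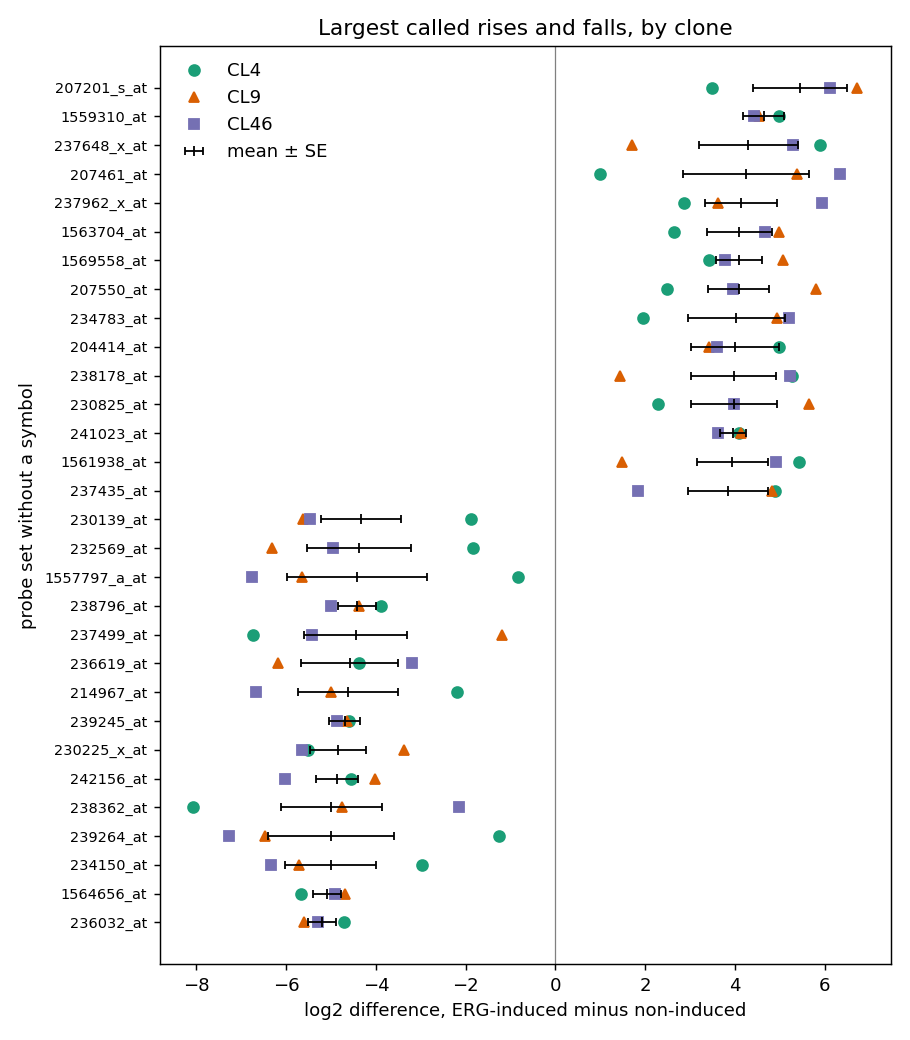
Log2 difference, ERG-induced minus non-induced, of the 15 largest rises and 15 largest falls among members called and moved in the same direction in all clones. Coloured symbols are the 3 clones and black bars the mean ± SE of the limma fit. The 3 clones lie close together for 236032_at, 1564656_at, 239245_at and 241023_at and more than 5 log2 units apart for 1557797_a_at, 239264_at, 238362_at, 237499_at and 207461_at.

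Other members moved far in opposite directions between clones. Probe set 1561208_at had log2 differences of -6.07, 2.38 and 1.45 in the same order of clones, and 1559259_at of -6.04, 0.30 and 1.11. In both, the ERG-induced array of CL4 was the lowest of the 6, at ratios of 0.0423 and 0.0166. Probe set 241770_x_at rose by 6.90 in CL9 while the differences were -1.75 and -4.19 in CL4 and CL46, and its ratio in CL9 went from 0.0310 to 3.70. Probe set 236955_at gave -0.55, 6.46 and -1.57. The non-induced array of CL9 was the lowest for both.
Probe set 240254_at gave 4.15, 0.10 and -6.68 in CL4, CL9 and CL46, and 214078_at -0.43, -0.75 and 6.40. The ratio of 214078_at, 13.0 in the ERG-induced array of CL46, stood far above the 5 other arrays, which lay between 0.154 and 0.569. These 6 members were picked for the largest difference of 1 clone against both others, and 0 of them were called over all 3 clones. With a clone left out, 1561208_at was called higher without CL4 (1.91) and 241770_x_at lower without CL9 (-2.97). With 1 array per clone and group, whether such a difference belongs to the clone or to the array cannot be told apart.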

How the data were processed

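Total RNA of 3 K562 pTRE-ERG clones, grown with or without doxycycline, was hybridized to 6 Affymetrix arrays and analysed in GeneSpring by the authors. The deposited values are linear ratios, each probe set divided by its median over the arrays. In 3937 of 54613 probe sets the median was below 1 (tolerance 1e-05). Background correction and the earlier array scaling are not given in the sources used. Signal over background is unknown, and precision is limited by the number of arrays. Controls (62) served only for the ribosomal RNA values.
The log2 ratios, with no floor or filter, were compared with limma 3.58.1 under R version 4.3.3 (lmFit and eBayes, no trend, two-sided, Benjamini-Hochberg over all 54613 probe sets). Symbols came from the platform annotation and gene types from RefSeq genes of GRCh38.p14, matched by gene ID for all but 60 of 41091 probe sets with 1 symbol. Value columns of no mapped sample numbered 0.
Named were the 15 largest rises and falls among members called and of 1 direction in all clones, the 5 smallest p in each direction, and per clone the 2 largest differences opposite to both other clones. The members, classes and blocks were chosen with earlier results of these data known. The fit was tested on simulated data. Arrays are paired by their shared clone, and the correlation of their deviations from the group means, across all probe sets, was 0.03, 0.02 and 0.03 (CL4, CL9 and CL46). Alternatives were the clone as a block, 2 other scalings, no moderation, other thresholds, filters on median ratio and suffix, other comparison classes, and each clone left out.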

Additional observations from a re-analysis of the deposited data

How the results depend on the processing

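Without 1 clone, the members called higher numbered from 420 to 472 and those called lower from 784 to 1044. The members lower in all clones left ranged from 33.5% to 34.9%, a share over 2 clones in place of 3, and the median difference from -0.24 to -0.19. The gap in lower calls between members and probe sets with 1 symbol ranged from 1.15 to 1.47 percentage points. With each array centred the median was -0.10 and 20.6% of the members were lower in all clones, and after quantile normalization the median was -0.073 and the share 20.0%. The share of the members' calls that were lower, 73.3%, was 67.0% with each array centred and 64.2% after quantile normalization. With the clone as a replicate block, 1009 members were called lower and 416 higher, and the gap was 0.59. Without moderation 209 members were called higher, and the gap turned to -0.56. It turned to -0.39 with no fold threshold. With a fold of 2 and no p, 2847 members were lower and 1768 higher, and the gap was 6.79. Without probe sets of a median ratio below 1, 24.7% were lower in all clones. Against long noncoding probe sets, a comparison chosen after seeing the data, as was that with protein-coding ones, the gap was 3.83, and against protein-coding ones 0.14. The causes were not tested. For the named members, 24 of 358 alternative values lost their call, of which 6, 8 and 8 were without CL4, CL9 and CL46 and 2 without moderation. The 358 also count the values of the 6 members picked as opposite between clones, which had no call to lose. The 6 members picked as opposite between clones, uncalled over all clones, turned direction without the clone that stood apart. With 1 clone left out, 1561208_at ranged from -2.31 to 1.91 and 1559259_at from -2.87 to 0.70, each positive only without CL4. Probe sets 241770_x_at (-2.97 to 2.58) and 236955_at (-1.06 to 2.96) were negative only without CL9. Probe set 240254_at (-3.29 to 2.12) was positive, and 214078_at (-0.59 to 2.99) negative, only without CL46. In these turned directions 1561208_at and 241770_x_at were called.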
